A study of Mus musculus with 10 samples.

Results

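Expression of 10 genes that mark pericytes and vascular smooth muscle cells was measured in the mouse pinna at E14.5 by bulk RNA-seq. The genes were *Rgs5*, *Pdgfrb*, *Cspg4*, *Kcnj8*, *Abcc9*, *Notch3*, *Myh11*, *Acta2*, *Tagln* and *Cnn1*. They were chosen by symbol as markers, by a rule that uses no measured value but was written with earlier results of these data known, and they were 10 of the 53465 genes in the count table. All 10 were found, and 9 passed the filter on low counts and were tested. *Tagln* did not pass it.

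Wild type (WT) embryos were compared with *mEC1*dup/dup knock-in (KI) embryos, 5 libraries each. *mEC1* is an enhancer of *Hmx1*, a homeobox gene, and the KI embryos carry an additional copy of it on each allele, made by CRISPR/Cas9 on a C57BL/6J background. The libraries of a genotype are described as independent embryos, siblings from separate litters, and were made from dissected pinna prominences, a tissue that holds many cell types. The sources used here do not say which embryos share a litter, or their sex. The comparison therefore asks how the level of each marker in the whole pinna changed with the duplication.

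Pericytes and smooth muscle cells are the mural cells, which wrap the endothelial tube of blood vessels. Pericytes sit on capillaries and are recruited by PDGF-B from the endothelium through the receptor *Pdgfrb*, whereas smooth muscle cells form the contractile layer of larger vessels and build it from smooth muscle actin, smooth muscle myosin and the calponin family. None of these genes is confined to mural cells. *Pdgfrb* is also made by fibroblasts, and *Acta2* also by young skeletal muscle, both of which the pinna holds.

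The 250 bases before the annotated start are shown for the member that was called and for the member that hardly had counts, read from the GRCm39 genome on the strand of the gene. The *Rgs5* stretch lies at chr1:169482786-169483035 on the plus strand and the *Tagln* stretch at chr9:45847405-45847654 on the minus strand. Capitals mark matches on either strand to 3 motifs. The first is the CArG box bound by SRF, searched only in its strict form, with nothing but A or T between CC and GG. The others are the core CAAGTG bound by HMX factors and the core TGGGAA bound by RBPJ, the nuclear partner of Notch. None of the matches overlapped another in these stretches.
Rgs5: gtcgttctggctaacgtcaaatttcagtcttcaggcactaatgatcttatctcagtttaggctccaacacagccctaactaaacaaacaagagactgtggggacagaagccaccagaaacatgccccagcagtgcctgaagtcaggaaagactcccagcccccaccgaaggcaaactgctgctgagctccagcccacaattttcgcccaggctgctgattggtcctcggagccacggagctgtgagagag
Tagln: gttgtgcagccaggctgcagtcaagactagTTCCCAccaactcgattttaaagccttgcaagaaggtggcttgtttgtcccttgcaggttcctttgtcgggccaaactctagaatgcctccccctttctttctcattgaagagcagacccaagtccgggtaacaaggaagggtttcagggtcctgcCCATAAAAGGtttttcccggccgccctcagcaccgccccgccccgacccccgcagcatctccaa

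The *Rgs5* stretch held none of the 3 motifs. The *Tagln* stretch held a CArG box 64 to 55 bases before the start, matched on both strands, and an RBPJ core in reverse orientation 220 to 215 bases before it. Among the other members, *Kcnj8* had a CAAGTG core 90 to 85 bases before its start and *Abcc9* a TGGGAA core 123 to 118 bases before its start. A CArG box of the strict form thus stood in 1 of 10 member promoters and in 1.4% of 21770 protein-coding promoters of the same length. CArG boxes with other letters between CC and GG, or outside these stretches, were not searched, so a promoter without a match may still hold one. CAAGTG stood in 1 of 10 against 12.4%, and TGGGAA in 2 of 10 against 22.7%. These are matches of letters and not measured binding.

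Total counts ranged from 17461544 to 18462073 per library. *Hmx1* checked the genotype labels, with 376 to 526 counts in WT and 976 to 1356 counts in KI libraries and a log2 fold change of 1.31. Transcripts that mark sex differed between the groups. *Xist*, the transcript of the inactive X chromosome, had at most 5 counts in each WT library but 12812, 19040, 18165, 2096 and 0 counts in KI replicates 1 to 5, and the Y-linked *Ddx3y* had 1289 to 1517 counts in WT and 241, 10, 16, 1219 and 1333 in KI. *Eif2s3y*, *Kdm5d* and *Uty* followed *Ddx3y*, and KI replicates 1 and 4 held both *Xist* and Y-linked counts. Those 2 libraries therefore put in doubt that each library is a single embryo, and with it the n of 5. The share of embryonic globins among all globin counts was 18.4% to 23.3% in WT and 32.5% to 35.6% in KI libraries, so this share and the genotype cannot be told apart.

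Over all 16426 tested genes, 1.81% were called lower in KI, 0.834% higher and 2.64% in either direction, where a call required an average log2 CPM (counts scaled to the library total) of 1 or more and, in the edgeR quasi-likelihood test, a Benjamini-Hochberg adjusted p no higher than 0.05. Of the 9 tested markers, 1 was called lower, *Rgs5*, and none higher. At an unadjusted p under 0.05, 4 were lower and 0 higher, against 16.2% of all tested genes in either direction and 9.08% lower. DESeq2 and limma-voom also called 1 lower and 0 higher. The median log2 fold change of the markers was -0.10, with 6 negative and 3 positive, and that of all tested genes was -0.0041. Summed over the members, the level was 695 to 843 CPM in WT and 716 to 828 CPM in KI, so the sum overlapped between genotypes, and most of it came from *Acta2*, *Pdgfrb* and *Notch3*. In bulk tissue, fewer mural cells and less RNA per mural cell cannot be told apart.

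**Figure D1:**
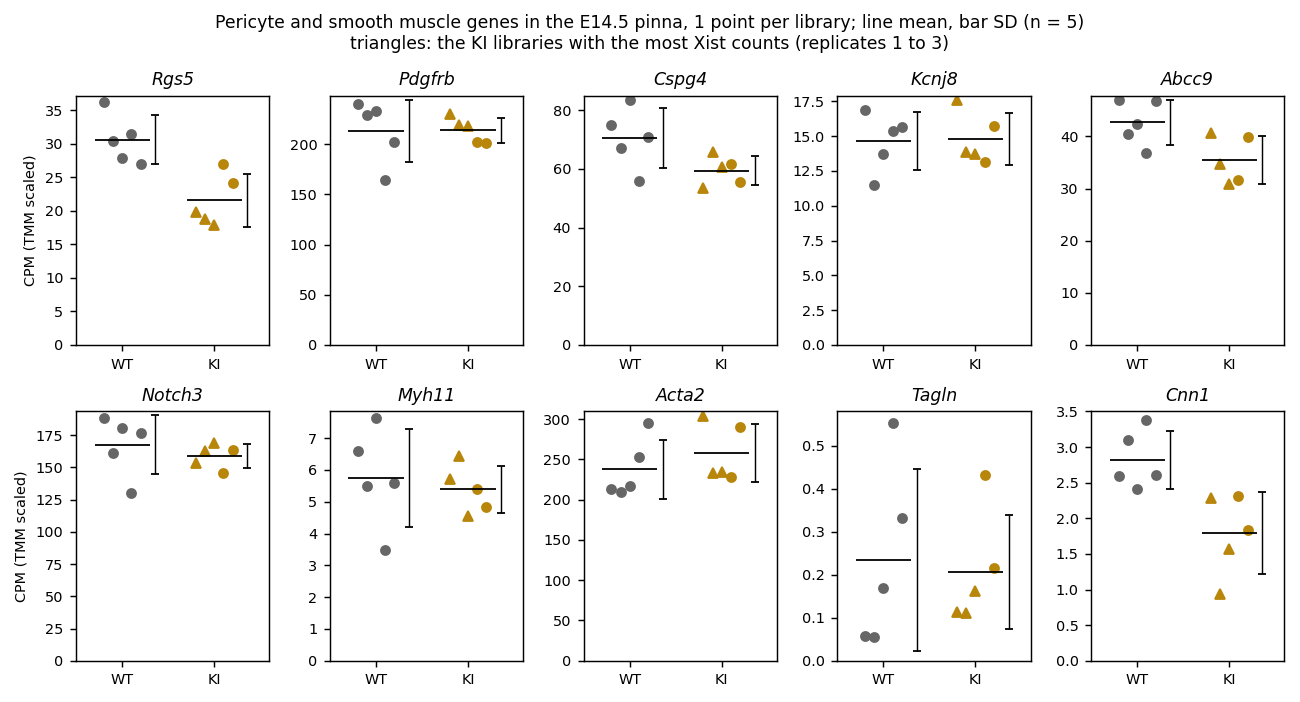
Level of each marker (y axis, TMM-scaled CPM from 0) in each WT (grey) and KI (gold) library, with the mean as a line, the SD as a bar beside it (n = 5) and triangles for KI replicates 1 to 3, which have the most *Xist* counts. *Rgs5* sits lowest in those 3 libraries, *Cnn1* does not overlap between the groups, and the other markers overlap.

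*Rgs5* encodes a regulator of G-protein signalling and is among the most used pericyte markers (chr1:169483036-169524887 in GRCm39, plus strand). The WT libraries held it at 36.2, 30.4, 27.9, 31.4 and 26.9 CPM, and the KI libraries at 19.8, 18.8, 17.9, 27.0 and 24.2 CPM. The KI values lay below the WT values except for KI replicate 4, which stood just above WT replicate 5. The level in KI was 70.5% of that in WT, a log2 fold change of -0.50 (SE 0.12, 95% interval -0.75 to -0.25, adjusted p = 0.0378), from 329 to 627 counts per library.

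The lowest 3 values of *Rgs5* were those of KI replicates 1 to 3, the libraries with the most *Xist*. Without these 3, an alternative chosen after seeing the data, the log2 fold change was -0.25 (SE 0.12) and the adjusted p was 0.470. With *Xist* as a covariate it was -0.29 (SE 0.17, adjusted p = 0.650), and with *Ddx3y*, also added after seeing the data, -0.29 (SE 0.11, adjusted p = 0.361). The estimate turned to 0.51 when the share of embryonic globins was the covariate (SE 0.42, adjusted p = 0.898), and the genotype term of *Hmx1* itself then fell to 0.34 (adjusted p = 0.921). With the mean level of the skeletal muscle list *Rgs5* was at -0.68 (SE 0.18, adjusted p = 0.183). The loss was not particular to *Rgs5*, as the main fit called 297 of all tested genes lower. Without KI replicates 1 to 3 this number was 0, with *Xist* 1, with *Ddx3y* 11, with the globin share 0 and with the skeletal muscle list 14. Single libraries also decided the call of *Rgs5*: it was lost without WT replicate 1 (adjusted p = 0.101), WT replicate 2 (0.0809), WT replicate 3 (0.0542), KI replicate 1 (0.0657), KI replicate 2 (0.106) or KI replicate 3 (0.108). In those fits the log2 fold change stayed between -0.54 and -0.44.

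*Pdgfrb*, the PDGF receptor through which pericytes are recruited (chr18:61178212-61218133), was at 240, 229, 233, 165 and 202 CPM in WT and at 230, 219, 218, 202 and 201 CPM in KI. WT replicate 4 stood below every other library and the remaining values overlapped. The log2 fold change was 0.00 (SE 0.086, 95% interval -0.18 to 0.19, adjusted p = 0.990), an interval whose lower end lies above the value of *Rgs5*. Set beside each other, *Rgs5* counts were 14.6% ± 2.76 (SD, n = 5) of *Pdgfrb* counts in WT and 10.2% ± 2.38 in KI. This ratio was formed after the values were seen and was not tested. Its ranges, 12.0% to 19.1% and 8.20% to 13.4%, overlapped.

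*Cspg4*, the NG2 proteoglycan on the pericyte surface (chr9:56772317-56807187), was at 74.9, 67.1, 83.5, 55.8 and 70.9 CPM in WT and 53.5, 65.6, 60.8, 61.5 and 55.6 CPM in KI. Only WT replicate 4 fell within the KI range. The log2 fold change was -0.25 (SE 0.091, unadjusted p = 0.0183, adjusted p = 0.193) and did not pass the threshold. Without WT replicate 4 it was -0.32 and was called (adjusted p = 0.0237), in a fit that called 476 genes lower in all, against 297 with all libraries. *Cspg4* was not called when any other single library was left out (adjusted p up to 0.350). With a covariate its log2 fold change was -0.32 (*Xist*, adjusted p = 0.533), -0.31 (*Ddx3y*, 0.357), -0.40 (skeletal muscle list, 0.334) and 0.32 (globin share, 0.934).

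*Kcnj8* and *Abcc9* encode Kir6.1 and SUR2, the pore and the regulatory subunit of the ATP-sensitive potassium channel of mural cells, and are neighbours on chromosome 6 (142510563 to 142517830 and 142533588 to 142648571, both on the minus strand). *Kcnj8* was at 16.9, 11.5, 13.8, 15.4 and 15.7 CPM in WT and at 17.6, 13.8, 13.7, 13.1 and 15.8 CPM in KI, with a log2 fold change of 0.02 (SE 0.11, 95% interval -0.23 to 0.26, adjusted p = 0.962). *Abcc9* was at 47.0, 40.5, 42.4, 36.9 and 46.7 CPM in WT and at 40.7, 34.7, 30.8, 31.6 and 39.9 CPM in KI. Its groups overlapped, and its log2 fold change of -0.26 (SE 0.091, unadjusted p = 0.0123) did not pass after adjustment (adjusted p = 0.157). With a covariate, *Abcc9* was at -0.012 (skeletal muscle list, adjusted p = 0.987), -0.147 (*Xist*, 0.792) and -0.195 (*Ddx3y*, 0.590). *Kcnj8* was at 0.336 with the skeletal muscle list (SE 0.147, adjusted p = 0.462). *Kcnj8* counts were 34.4% ± 4.96 of *Abcc9* counts in WT and 41.7% ± 2.09 in KI (SD, n = 5), a ratio formed after the values were seen, and WT replicate 4 overlapped the KI range.

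The other subunits that can form such channels, *Kcnj11* (Kir6.2) and *Abcc8* (SUR1), were low. *Kcnj11* was at 3.16 to 6.04 CPM in WT and 2.54 to 4.17 CPM in KI, with a log2 fold change of -0.48 (SE 0.20, adjusted p = 0.236). *Abcc8* had a log2 fold change of -0.39 (SE 0.28, adjusted p = 0.544). Both ranges overlapped, and neither gene was called, 1 of them having an unadjusted p under 0.05.

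*Notch3*, the Notch receptor of mural cells (chr17:32339794-32385893, minus strand), was at 188, 161, 181, 130 and 177 CPM in WT and at 154, 163, 169, 146 and 163 CPM in KI. Its log2 fold change was -0.08 (SE 0.083, 95% interval -0.26 to 0.10, adjusted p = 0.711). WT replicate 4 was again the lowest library. The same library was the lowest WT library for *Pdgfrb*, *Cspg4*, *Abcc9*, *Notch3* and *Myh11*, but not for *Rgs5*, *Kcnj8*, *Acta2* or *Cnn1*.

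*Acta2*, smooth muscle alpha-actin (chr19:34217737-34232990, minus strand), had the highest level of the members per exon length in every library. In CPM it was at 213, 209, 216, 253 and 295 in WT, below *Pdgfrb* in WT replicates 1 to 3, and 304, 233, 234, 228 and 290 in KI, with overlapping groups and a log2 fold change of 0.12 (SE 0.11, 95% interval -0.11 to 0.35, adjusted p = 0.649). With the skeletal muscle list as a covariate, *Acta2* was called higher (log2 fold change 0.56, SE 0.074, adjusted p = 0.0104). That covariate, the mean log2 CPM of the list, was 6.02 to 6.66 in WT and 5.20 to 5.96 in KI, so its ranges do not overlap and it cannot be told apart from the genotype.

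*Actc1*, the cardiac alpha-actin that embryonic skeletal muscle also makes, was at 656 to 1015 CPM in WT and 530 to 813 CPM in KI. Counts of *Acta2* were 29.0%, 31.9%, 30.6%, 32.5% and 29.1% of *Actc1* counts in WT and 37.4%, 39.0%, 37.5%, 43.0% and 37.8% in KI. The KI ratios lay above all WT ratios. The ratio was chosen after the values were seen and is given without a test, and the muscle actins have near-identical coding sequences, so reads may be split between them in ways the counting does not show. *Acta1*, the skeletal alpha-actin, was called lower in KI (log2 fold change -0.88, SE 0.14, adjusted p = 0.00804).

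*Myh11*, the smooth muscle myosin heavy chain (chr16:14012399-14109236, minus strand), was at 6.59, 5.48, 7.63, 3.49 and 5.59 CPM in WT and 5.71, 6.45, 4.56, 5.39 and 4.82 CPM in KI. The KI values lay inside the WT range. The log2 fold change was -0.10 (SE 0.18, 95% interval -0.49 to 0.30, adjusted p = 0.853), from 63 to 136 counts per library.

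*Cnn1*, the calponin of differentiated smooth muscle (chr9:22010512-22020926, plus strand), was at 2.60, 3.10, 2.41, 3.38 and 2.60 CPM in WT and 2.29, 0.937, 1.57, 2.32 and 1.84 CPM in KI. The KI values lay below all WT values, as they did in either direction for 5.07% of all tested genes. The log2 fold change was -0.65 (SE 0.23, 95% interval -1.15 to -0.16, unadjusted p = 0.0133), larger than that of *Rgs5*, and it did not pass after adjustment (adjusted p = 0.163). Its lowest values were those of KI replicates 2 and 3, which have much *Xist*, while KI replicate 1, also high in *Xist*, stood second highest of the KI libraries. Its log2 fold change was -0.44 without KI replicates 1 to 3 (adjusted p = 0.55), and with a covariate it was -0.52 (*Xist*, adjusted p = 0.721), -0.30 (*Ddx3y*, 0.729), -0.66 (skeletal muscle list, 0.599) and -0.73 (globin share, 0.937). It rested on 17 to 61 counts per library, and 35.1% of its exonic bases overlap *Elof1* on the opposite strand, which had 924 to 1139 counts.

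*Tagln*, also called SM22-alpha, an actin-binding protein of smooth muscle (chr9:45840909-45847404, minus strand), had 1, 1, 3, 10 and 6 counts in WT and 2, 2, 3, 8 and 4 in KI, 40 in all. Its groups overlapped, and fitted without the filter it had a log2 fold change of -0.16 (SE 0.65, adjusted p = 0.940), so no difference was detectable at this depth. Of its 2044 exonic bases in the annotation, 66.7% overlap genes on the opposite strand, which were *Gm48529* over 3 of its exon stretches and *Pcsk7* at its 3' end. *Gm48529* had 1 to 10 counts per library and *Pcsk7* 536 to 629. The stretches of *Tagln* that no other gene overlaps are 378, 29 and 273 bases long. The kits named do not mark strand, and how the counting treated reads that fall on both genes is not given in the sources used here, so the low count is not read as a low level of the transcript.

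**Figure D2:**
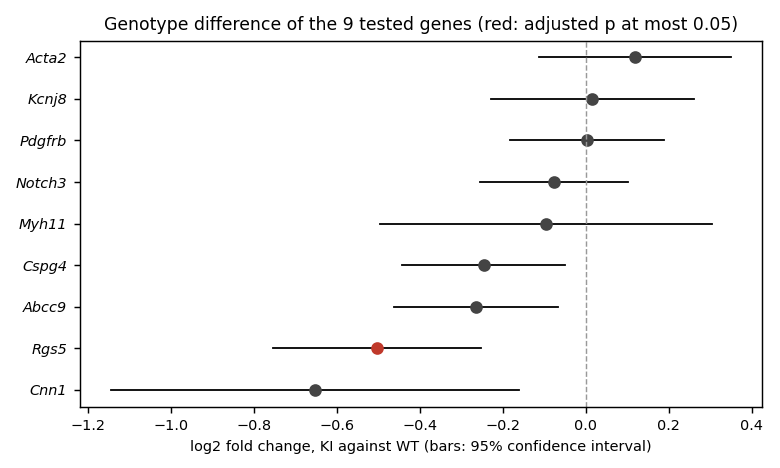
Log2 fold change, KI against WT (x axis), of the 9 tested markers with 95% confidence intervals as bars and the called gene in red. *Rgs5* is at -0.50 and called, *Cnn1* is at -0.65 with the widest interval, and the intervals of *Acta2*, *Kcnj8*, *Pdgfrb*, *Notch3* and *Myh11* include 0.

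Levels between genes were compared per exon length, in TPM (CPM divided by exon length and rescaled to a common sum). *Acta2* was highest at 343 ± 53.2 TPM in WT and 375 ± 53.6 in KI (SD, n = 5), followed by *Pdgfrb* at 123 ± 17.8 and 124 ± 8.03 and *Notch3* at 86.5 ± 12.0 and 82.7 ± 5.23. *Cspg4* followed at 27.4 ± 4.02 and 23.3 ± 1.95, *Rgs5* at 23.1 ± 2.75 and 16.4 ± 2.84, *Kcnj8* at 18.1 ± 2.61 and 18.4 ± 2.37, and *Abcc9* at 17.1 ± 1.74 and 14.4 ± 1.89. The contractile genes *Cnn1* and *Myh11* were lower, at 4.79 ± 0.674 and 3.53 ± 0.950 TPM in WT and 3.07 ± 0.964 and 3.33 ± 0.476 TPM in KI. *Tagln* was listed at 0.532 ± 0.482 TPM in WT and 0.473 ± 0.298 in KI, which is given no place in the order because of its overlapped exons.

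The steps from *Acta2* to *Pdgfrb*, *Pdgfrb* to *Notch3*, *Notch3* to *Cspg4* and *Abcc9* to *Cnn1* held in 10 of 10 libraries. *Cspg4* was above *Rgs5* in 9 of 10, *Kcnj8* above *Abcc9* in 8, *Cnn1* above *Myh11* in 7 and *Rgs5* above *Kcnj8* in 6, so these neighbours do not differ beyond their spread in every library. The last 2 orders were those of the WT means. In KI the mean of *Kcnj8* (18.4 TPM) stood above that of *Rgs5* (16.4 TPM), and *Myh11* (3.33 TPM) above *Cnn1* (3.07 TPM). *Acta2* made up 52.9% ± 5.60 of the summed level of the members in WT and 56.5% ± 3.07 in KI, while *Rgs5* made up 3.6% ± 0.555 and 2.51% ± 0.544.

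**Figure D3:**
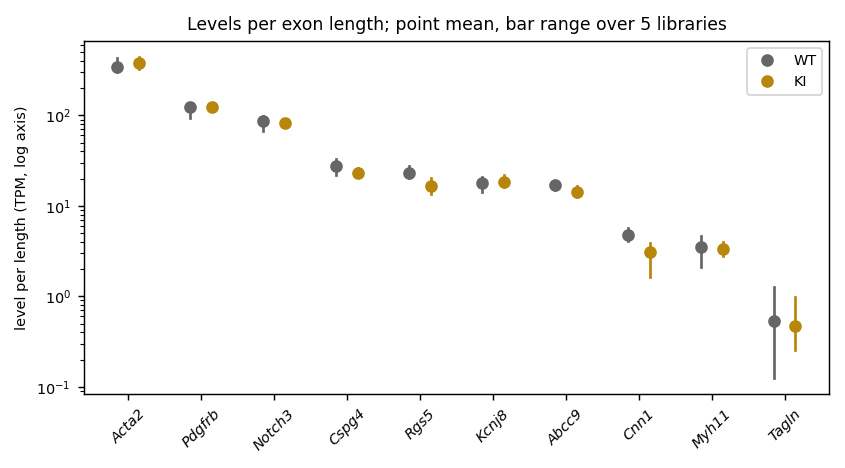
Level per exon length of each marker (y axis, TPM on a log axis) in WT and KI, as the mean (point) and range (bar) over 5 libraries. *Acta2* lies above *Pdgfrb* in all libraries, a group from *Cspg4* to *Abcc9* lies close together, and *Tagln* is plotted from few counts over exons that other genes mostly overlap.

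Of 18 further pericyte genes 17 were tested, 1 was called lower and 0 higher, with a median log2 fold change of -0.04. At an unadjusted p under 0.05 in edgeR, 5 were lower and 0 higher, against 9.08% of all tested genes lower. The called gene was *Ndufa4l2*, a mitochondrial protein enriched in pericytes and also induced by hypoxia. It was at 13.6, 13.7, 12.0, 8.64 and 10.5 CPM in WT and 3.89, 3.75, 4.62, 4.05 and 6.88 CPM in KI, with no overlap. Its log2 fold change was -1.33 (SE 0.18, adjusted p = 0.00363). The call was kept without any single library (log2 fold change -1.52 to -1.27, adjusted p at most 0.0189). It was lost with *Xist* (-0.90, adjusted p = 0.322) and the skeletal muscle list (-1.32, adjusted p = 0.108) as a covariate, without KI replicates 1 to 3 (-1.10, adjusted p = 0.178) and with *Ddx3y* (-1.15, adjusted p = 0.0863), and the sign turned with the globin share (0.29, adjusted p = 0.956).

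The other genes of that list with the highest CPM were not called. *Des*, the intermediate filament shared by mural cells and skeletal muscle, had a log2 fold change of -0.40 (SE 0.13, adjusted p = 0.140), and the adhesion molecule *Mcam* -0.12 (SE 0.044, adjusted p = 0.171). The transcription factors *Ebf1* and *Foxc1* had 0.11 (SE 0.051, adjusted p = 0.317) and 0.23 (SE 0.14, adjusted p = 0.476). Of the defining pericyte markers outside the members, *Higd1b* was at 0 to 0.331 CPM over the libraries and was not tested, *Cox4i2* was at 3.88 to 8.03 CPM in WT and 3.64 to 4.97 CPM in KI, and *Vtn* ranged from 0.800 to 11.8 CPM within KI alone.

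Of 20 further smooth muscle contractile genes 18 were tested, with 1 called lower and 0 higher and a median log2 fold change of -0.12. At an unadjusted p under 0.05 in edgeR, 8 were lower and 0 higher, against 9.08% of all tested genes lower. The called gene was *Tagln2*, a widely expressed relative of *Tagln*, at 76.0, 88.7, 72.5, 78.9 and 84.0 CPM in WT and 68.7, 55.7, 55.6, 73.1 and 65.5 CPM in KI. Its ranges overlapped only by KI replicate 4, and its log2 fold change was -0.33 (SE 0.080, adjusted p = 0.0483). The call was kept without WT replicate 4, KI replicate 1 or KI replicate 4 (adjusted p 0.0354 to 0.0459). It was lost without any of the other libraries (adjusted p 0.0522 to 0.135). It was also lost when libraries were scaled by total counts (-0.32, adjusted p = 0.053) or by the endothelial list (-0.29, adjusted p = 0.0809), without KI replicates 1 to 3 (-0.21, adjusted p = 0.411) and with *Xist* (-0.25, adjusted p = 0.605), *Ddx3y* (-0.17, adjusted p = 0.438), the globin share (-0.32, adjusted p = 0.926) or the skeletal muscle list (-0.32, adjusted p = 0.43) as a covariate. *Tpm1*, *Cnn3*, *Cald1* and *Cnn2*, the highest of the list by CPM not divided by length and averaged over all 10 libraries, had log2 fold changes between 0.005 and 0.05, with SEs of at most 0.053. In WT alone, *Tpm2* (321 CPM on average) stood above *Cnn2* (296 CPM). Per length, the WT means of *Myl6*, *Tpm2* and *Csrp1* stood above those of *Tpm1* and *Cald1*, and these 3 genes had log2 fold changes of -0.10 (SE 0.038, adjusted p = 0.193), -0.33 (SE 0.13, adjusted p = 0.216) and -0.14 (SE 0.036, adjusted p = 0.0539). The groups did not overlap for *Myl6* and *Csrp1*, and none of the 3 was called by edgeR. *Smtn*, *Lmod1* and *Mylk*, more restricted to smooth muscle, had -0.17, -0.35 and -0.25 (adjusted p 0.171 to 0.219).

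The regulators of this programme showed no call. Of the 7 genes of the myocardin and SRF list, 0 were called by edgeR, DESeq2 or limma-voom and 0 had an unadjusted p under 0.05 in edgeR, with a median log2 fold change of -0.02. *Srf* had a log2 fold change of -0.02 (SE 0.050), and its cofactors *Mrtfa* and *Mrtfb* -0.01 (SE 0.058) and 0.01 (SE 0.065). *Hey1* had 0.19 (SE 0.13, adjusted p = 0.529). *Myocd*, the cofactor restricted to cardiac and smooth muscle, was at 0.609 to 0.982 CPM in WT and 0.539 to 0.869 CPM in KI.

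Among the signals that reach mural cells, the PDGF list had 0 of 5 genes called, with 1 lower and 1 higher at an unadjusted p under 0.05. *Pdgfb*, the endothelial ligand of *Pdgfrb*, was at 27.7 to 33.3 CPM in WT and 28.4 to 31.1 CPM in KI (log2 fold change -0.02, SE 0.057). *Pdgfra*, the receptor of fibroblasts, had 0.08 (SE 0.074), and *Pdgfa* and *Pdgfc* had -0.13 (SE 0.053) and 0.10 (SE 0.043).

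Of 8 ligands and targets of *Notch3*, 1 was called lower and 0 higher. *Jag2*, a Notch ligand of epithelium and endothelium, was at 105, 87.0, 84.2, 81.6 and 89.4 CPM in WT and 80.0, 75.1, 66.9, 68.5 and 74.5 CPM in KI without overlap, a log2 fold change of -0.29 (SE 0.069, adjusted p = 0.0407). The call was kept without WT replicate 4 (adjusted p = 0.0167) or KI replicate 1 (0.0287) and lost without any of the other libraries (0.0542 to 0.12). It was also lost without KI replicates 1 to 3 (-0.32, adjusted p = 0.247) and with *Xist* (-0.29, adjusted p = 0.449), *Ddx3y* (-0.28, adjusted p = 0.266) or the skeletal muscle list (-0.20, adjusted p = 0.578) as a covariate, and the sign turned with the globin share (0.23, adjusted p = 0.929). *Jag1* had -0.18 (SE 0.063, adjusted p = 0.175), *Rbpj* -0.01 (SE 0.032), and the targets *Hes1* and *Heyl* 0.13 (SE 0.067) and -0.10 (SE 0.077).

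Of 11 genes of the TGF-beta and angiopoietin signals, 0 were called, with 3 lower and 2 higher at an unadjusted p under 0.05. The highest in CPM, *Tgfbr2* and *Tgfbr1*, had log2 fold changes of -0.11 (SE 0.047) and 0.12 (SE 0.047), and *Tgfb2* and *Tgfb3* 0.17 (SE 0.065) and -0.10 (SE 0.051). *Tek*, the angiopoietin receptor of endothelium, had -0.11 (SE 0.060). Over the further mural and signal lists together, edgeR and limma-voom called *Ndufa4l2*, *Tagln2* and *Jag2* lower. DESeq2 called the same 3 and also *Csrp1*, a LIM protein of smooth muscle, and *Tgfb1*, the latter with a log2 fold change of -0.25 in edgeR (adjusted p = 0.0898), and no tool called a gene of these lists higher. Of all tested genes, edgeR called 1.81% lower and 0.834% higher, so few calls in either direction would be found in lists of this size at those shares.

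**Figure D4:**
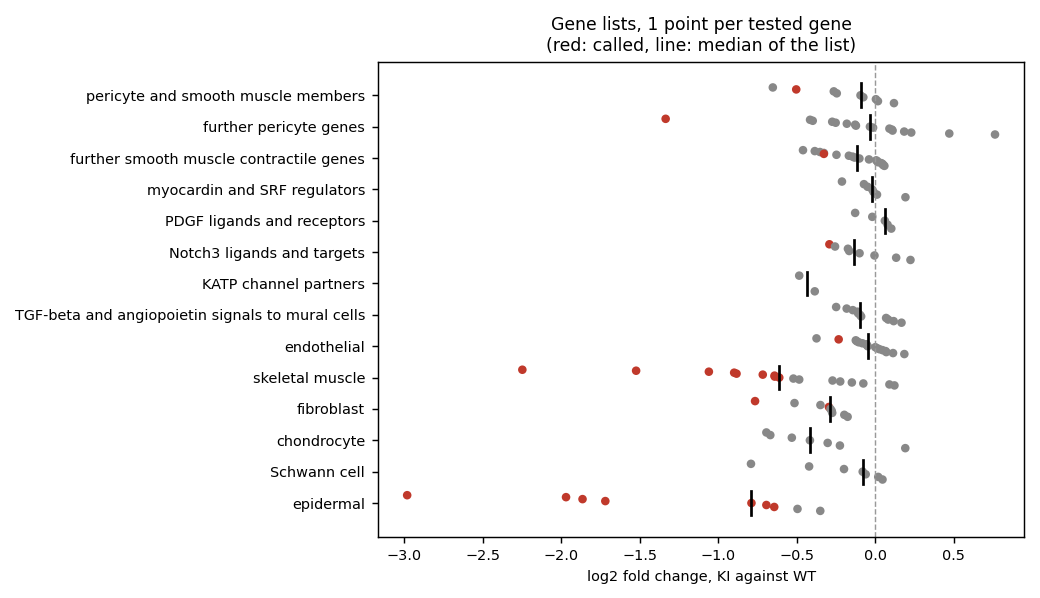
Log2 fold change, KI against WT (x axis), of each tested gene in 14 lists (rows), with called genes in red and the median of each list as a vertical line. The mural and endothelial lists have medians between -0.13 and 0.06, apart from the list of 2 KATP channel partners at -0.44, whereas the skeletal muscle and epidermal lists have medians of -0.61 and -0.79.

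Endothelial genes, which mark the vessels that mural cells wrap, overlapped between the groups in sum, at 845 to 1003 CPM in WT and 879 to 951 CPM in KI. Of 17 tested 1 was called lower and 0 higher, with a median of -0.05. The called gene was *Ramp2*, the adrenomedullin receptor partner, with a log2 fold change of -0.23 (SE 0.057, adjusted p = 0.0459). The call was kept without WT replicate 4 (adjusted p = 0.00869) and lost when any other single library was left out (adjusted p 0.0553 to 0.136). *Ramp2* was not called by limma-voom (adjusted p = 0.0502), which called 0 genes of this list, without the filter on low counts (adjusted p = 0.0549), after scaling by the endothelial list itself (-0.20, adjusted p = 0.121), without KI replicates 1 to 3 (adjusted p = 0.348) or with any covariate (adjusted p 0.303 to 0.969). DESeq2 called *Ramp2* and also *Crip2*, a LIM protein, which had the largest change of the list in edgeR (log2 fold change -0.38, SE 0.10, adjusted p = 0.0757). *Cdh5* had 0.01 (SE 0.072), *Erg* 0.06 (SE 0.071), *Kdr* -0.05 (SE 0.079) and *Pecam1* -0.11 (SE 0.043, adjusted p = 0.230). When libraries were scaled to the endothelial list in place of all genes, *Rgs5* was still called (log2 fold change -0.47, adjusted p = 0.0394).

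Of the markers of other cell types, genes of skeletal muscle, epidermis and fibroblasts were called lower in KI, and their part in the values above was not tested beyond the skeletal muscle covariate. Of 17 skeletal muscle genes 9 were called lower and 0 higher (median -0.61), namely *Ckm*, *Myf6*, *Tnnt3*, *Myh8*, *Acta1*, *Ttn*, *Neb*, *Myh7* and *Myh3* with log2 fold changes of -2.25 to -0.61, with summed levels of 2525 to 3870 CPM in WT and 1609 to 2551 CPM in KI. Of 9 epidermal genes 7 were called lower (median -0.79), namely *Dmkn*, *Krt1*, *Krt10*, *Krtdap*, *Perp*, *Krt5* and *Krt14* with log2 fold changes of -2.98 to -0.64, with summed levels of 863 to 1716 CPM in WT and 589 to 826 CPM in KI. Of 9 fibroblast genes, all with a negative log2 fold change (median -0.29), 2 were called lower, *Lum* (-0.30) and *Dpt* (-0.77), and 7 were lower at an unadjusted p under 0.05. Their summed level, 12852 to 21073 CPM in WT and 13344 to 15147 CPM in KI, overlapped. The summed chondrocyte level ranged from 5117 to 8339 CPM in WT and from 2227 to 6618 CPM in KI, with 0 of 7 called and 3 lower at an unadjusted p under 0.05 (median -0.42). Of 7 Schwann cell genes 0 were called and 1 was lower at an unadjusted p under 0.05 (median -0.08).

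The protein-coding genes whose log2 CPM followed a member most closely over the 10 libraries were read as a description, with no test. Libraries of a group share their genotype, transcripts that mark sex differed between the groups, and all libraries were scaled together. For *Rgs5* these were *Camsap3* (Pearson's r = 0.964), *Anxa5* (0.953), *Rnf6* (0.952), *Ostf1* (0.934) and *Mcpt4* (0.926). *Mcpt4* rested on only 5 to 20 counts per library. After the group means were taken out, r was 0.805 to 0.909 for these 5 genes, which were picked on the same libraries. Of these 5, *Ostf1* was called lower (log2 fold change -0.33, adjusted p = 0.0295). For *Acta2* they were *Myog* (0.968), *Myod1* (0.944), *Spg21* (0.943), *Fyn* (0.917) and *Tmem59l* (0.909), none of which was called. *Myog* and *Myod1* are transcription factors of skeletal muscle. *Myog* was at 87.5, 79.7, 90.4, 110 and 131 CPM in WT and 128, 102, 94.9, 85.2 and 132 CPM in KI, so that WT replicate 5, KI replicate 1 and KI replicate 5 were highest for *Myog*, as they were for *Acta2*.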

How the data were processed

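The authors trimmed paired-end reads with fastp, checked them with FastQC, used STAR for alignment to GRCm39 and featureCounts for reads per gene. They deposited raw counts, with no normalization, which are the values used here. The annotation release, the use of strand and the treatment of reads with several matches are not given in the sources used here. Symbols, positions and exon lengths came from a GENCODE annotation of GRCm39, matching 49355 of 53465 identifiers.

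Counts were filtered with filterByExpr by genotype, scaled by TMM and tested with the quasi-likelihood test of edgeR version 4.0.16 in R version 4.3.3, genotype being the only term, with Benjamini-Hochberg adjustment over 16426 genes. Log2 CPM of single libraries used a prior count of 2. DESeq2 version 1.42.0, limma-voom (limma version 3.58.1), other scalings and filters, covariates, a replicate block and leaving out libraries were alternatives. No 2 libraries of a group agreed within sampling noise (chi-square over its degrees of freedom of 2.55 or more). Total counts of 17461544 to 18462073 limit genes of few counts. The script was tested on simulated data.

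The members and lists were chosen with earlier results of these data known. Named genes were the members, *Hmx1*, sex genes, called list genes, up to 4 others per list by mean CPM, and the 5 genes most like *Rgs5* and *Acta2*. *Elof1*, *Pcsk7*, *Gm48529*, *Smtn*, *Lmod1*, *Mylk*, *Myocd*, *Tek*, *Csrp1*, *Myl6*, *Tpm2*, *Tgfb1*, *Crip2*, *Cox4i2*, *Higd1b* and *Vtn* were named beyond this rule, after their values were seen.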

Additional observations from a re-analysis of the deposited data

Results flagged for a closer look

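In KI replicate 5, *Ndufa4l2* was at 6.88 CPM, while the other KI libraries lay between 3.75 and 4.62 CPM. The gap to the nearest library was 0.722 of the group's whole range, above Dixon's 95% critical value of 0.71 for 5 samples. The value stayed below all WT libraries. It was the single value that stood apart among 30 groups of libraries, 15 genes in each genotype, and chance alone sets apart about 1 group in 20.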

How the results depend on the processing

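*Rgs5* was called in 13 of 24 alternatives and kept its direction in all but the fit with the globin share (0.51). Over all tested genes, 297 were called lower and 137 higher. Scaling by the endothelial list gave 185 and 63, and the Wald test of DESeq2 gave 509 and 321, with 5 genes of the further mural and signal lists lower in place of 3. With a replicate block, 2 markers were called lower, *Rgs5* (-0.51, adjusted p = 0.0213) and *Abcc9* (-0.27, adjusted p = 0.0222), with 487 genes lower in all, 5 of the further lists lower and 1 higher. Deviations of same-numbered libraries correlated at -0.056 to 0.345, not all above 0.1, so the numbers were not taken as pairs. With *Xist* as a covariate, 0 markers and 0 further-list genes were called lower (1 and 4 at an unadjusted p under 0.05 in edgeR) and 1 gene lower and 2 higher in all. With the globin share, 0 were called in any class (unadjusted, 0 markers lower or higher, 1 further-list gene lower and 5 higher, against 20 and 3 in the fit without it, and 386 genes lower and 409 higher). With the skeletal muscle list, 0 markers were called lower and 1 higher, 0 further-list genes lower (2, 2 and 6 unadjusted), and 14 genes lower and 14 higher in all. Without KI replicates 1, 2 and 3, chosen after seeing the data, 0 markers, 0 further-list genes and 0 genes in all were called lower (0, 8 and 1153 unadjusted) and 1 higher. With *Ddx3y*, also added later, 0 markers and 0 further-list genes were called lower (2 and 7 unadjusted), and 11 genes lower and 2 higher in all.

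Signs turned for *Pdgfrb* (*Xist* -0.10, muscle list -0.061, without KI replicates 1 to 3 -0.083, *Ddx3y* -0.044) and *Kcnj8* (without KI replicates 1 to 3 -0.019). With the globin share they turned for *Rgs5* (0.51), *Cspg4* (0.32), *Abcc9* (0.28), *Notch3* (0.50), *Myh11* (1.25), *Acta2* (-0.40), *Ndufa4l2* (0.29), *Jag2* (0.23) and *Ramp2* (0.078), of which only *Rgs5*, *Ndufa4l2*, *Jag2* and *Ramp2* were called before. The cause was not tested. Leaving out each library gave 0 to 2 markers lower, the 2 without WT replicate 4, 120 genes (without KI replicate 3) to 476 (without WT replicate 4) lower and 34 to 179 higher in all, and 1 to 11 further-list genes lower and 0 to 1 higher. Log2 fold changes then ranged from -0.08 to 0.048 for *Pdgfrb*, -0.055 to 0.072 for *Kcnj8* and -0.23 to 0.025 for *Myh11*. Depth limits *Tagln*, *Cnn1* and *Myh11*.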
